A study of Mus musculus with 16 samples.

Results

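The genes described here are 10 transcripts by which the cells around lung vessels are recognised, chosen by name out of the 54532 genes measured. Pdgfrb, Cspg4, Rgs5 and Notch3 mark pericytes and other mural cells, Acta2 and Tagln encode contractile proteins of smooth muscle, and Pdgfra, Col1a1, Col1a2 and Dcn belong to fibroblasts and the matrix that they make. All 10 were found and all 10 passed the filter on low values (0.5 FPKM or more on average in the libraries of a comparison). Tagln and Cspg4 lay close to it, as did Dcn in the comparison of LPS with saline. They were measured in bulk RNA-seq of pulmonary ECs, prepared from digested mouse lung by removal of cells carrying CD45 with magnetic beads and capture of cells carrying CD31.

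The first experiment used male WT C57/BL6J mice aged 8 weeks, which received saline (n = 4) or LPS at 10 mg/kg (n = 6) into the trachea. The second experiment used Fgfr1 loxP/loxP mice (n = 3) and Fgfr1 iΔEC/iΔEC littermates (n = 3), which carry the same floxed alleles together with VE-cadherin-CreERT2, a recombinase that is active in endothelium after tamoxifen, and both genotypes received LPS at 2 mg/kg. The study describes tamoxifen by injection into the abdomen for both genotypes and calls the mice adult, without an age in weeks. Lungs were taken 24 h later in each group. The sources do not say whether each library is 1 mouse, so that p-values measure the spread between libraries. The experiments differ in dose, mice and table, and each was tested only within itself. Reads on genes numbered 13478726 to 18807007 in saline, 17840221 to 19043015 in LPS, 15969575 to 17002788 in loxP/loxP and 16642177 to 16943522 in iΔEC/iΔEC libraries.

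Pericytes sit on capillaries within the basement membrane, smooth muscle cells wrap larger vessels and airways, and fibroblasts lie in the alveolar wall and around vessels. Platelet-derived growth factor B made by endothelium acts on the receptor encoded by Pdgfrb and holds pericytes at the vessel, and NOTCH3 in mural cells is engaged by ligands on the adjoining endothelium. These cells are not known for CD31, and in a bulk fraction their transcripts cannot be told apart from low expression within ECs.

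The summed level of 10 endothelial markers was 3276 to 5429 FPKM in saline and 1434 to 3382 FPKM in LPS libraries, led by Cldn5, whereas the 4 mural genes summed to 14.2 to 34.7 FPKM in saline and 7.51 to 20.7 FPKM in LPS libraries. Single endothelial markers were not all above the 10 genes, since Acta2 reached 77.7 FPKM in saline replicate 1, where Kdr, a receptor of vascular endothelial growth factor, stood at 64.8 FPKM. FPKM is the number of fragments per kilobase of gene, scaled by a size for each library, so that levels of different genes can be compared. This size was not the number of reads on genes (2.21e+07 against 18807007 in saline replicate 2). In saline libraries the mean level ran, from high to low, from Acta2 (27.1 FPKM) through Pdgfrb (15.4 FPKM), Col1a1 (11.6 FPKM), Pdgfra (9.96 FPKM), Col1a2 (8.94 FPKM), Notch3 (7.12 FPKM) and Rgs5 (3.93 FPKM) to Cspg4 (1.10 FPKM), Tagln (0.800 FPKM) and Dcn (0.792 FPKM). The first place of Acta2 rested on saline replicate 1, and the ranges of neighbours from Pdgfrb to Notch3 overlapped, as did those of Cspg4, Tagln and Dcn. In LPS libraries Acta2 (31.2 FPKM) stood first with no overlap with the next, and Tagln (0.507 FPKM) stood last.

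Several libraries stood apart. Saline replicate 3 had the lowest saline level of 9 of the 10 genes, all but Acta2, and it had the fewest genes with a read among saline libraries (20258, against 29713 in saline replicate 4). Saline replicate 1 held the highest Acta2 level of its group, 77.7 FPKM, together with a leukocyte marker sum of 2496 FPKM (585 to 1019 FPKM in the other saline libraries) and an epithelial marker sum of 2703 FPKM (1019 to 1998 FPKM). LPS replicate 1 had the lowest endothelial sum (1434 FPKM) and LPS replicate 6 the lowest leukocyte sum of its group (3559 FPKM). Values without these libraries are given where a call of the 10 genes rested on them.

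**Figure D1:**
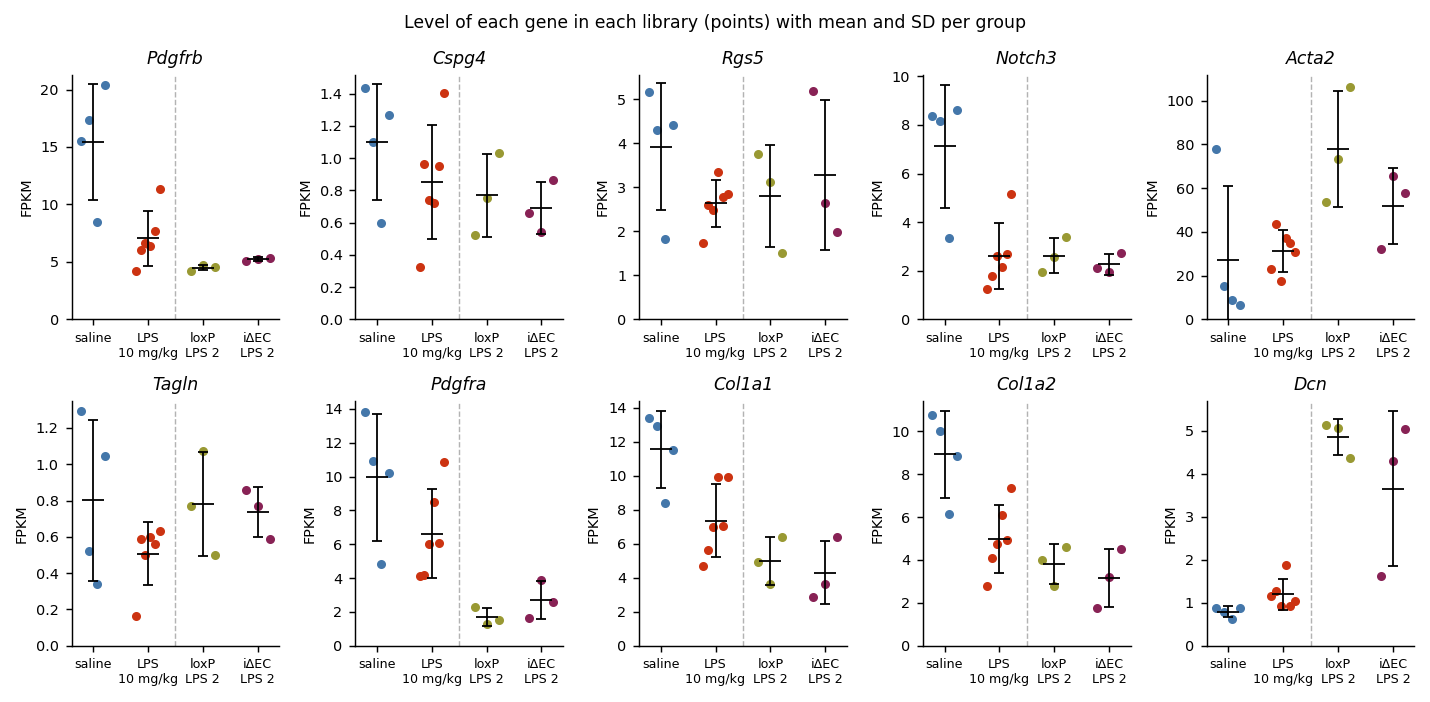
Level of each of the 10 genes in FPKM (y axes start at 0) in every library of the 4 groups, as points, with the mean and SD per group in black and a dashed line between the experiments; SD bars are clipped at 0. For Pdgfrb the LPS libraries lie between 4.2 and 11.3 FPKM and the saline libraries between 8.43 and 20.4 FPKM, and for Acta2 a single saline library reaches 77.7 FPKM.

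The comparison of LPS with saline asked which transcripts changed in the EC fraction during LPS-induced lung injury. Of the 10 genes, 4 fell and 0 rose. Pdgfrb and Notch3, both receptors of mural cells, had mean levels of 0.457 and 0.365 times those in saline, and Col1a1 and Col1a2, the chains of type I collagen, fell less. The other mural genes, the contractile pair, Pdgfra and Dcn did not pass the test. Calls were made with limma on log2(FPKM + 1), a scale that understates changes of low genes, at a Benjamini-Hochberg adjusted p of at most 0.05 over 14893 genes. Of all these genes 23.7% were lower and 29.5% were higher by the same rule, so that 4 of 10 lower and 0 of 10 higher are read against a large background. The median log2 fold change of the 10 genes was -0.45, and that of all genes tested was 0.01. When libraries were scaled on the 10 endothelial markers, which themselves had a median of -0.71, the median of all genes moved to 0.57 and that of the 10 genes to 0.08, and then 2 of the 10 (Acta2 and Dcn) were called higher and 0 lower. The distance of the 10 genes to all genes was -0.47 in the deposited scaling and -0.49 in the endothelial scaling. In bulk RNA, fewer cells of a type and less RNA per cell cannot be told apart.

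Pdgfrb (ENSMUSG00000024620, chromosome 18), the receptor through which pericytes respond to platelet-derived growth factor B, stood at 15.5, 17.4, 8.43 and 20.4 FPKM in the 4 saline libraries. In the 6 LPS libraries it ran from 4.2 FPKM through a median of 6.54 FPKM to 11.3 FPKM. All saline libraries but replicate 3 were above every LPS library. The mean was 15.4 ± 5.07 FPKM in saline (SD, n = 4) and 7.04 ± 2.38 FPKM in LPS libraries (SD, n = 6), and the log2 fold change was -1.02 ± 0.26 (SE, limma adjusted p = 0.0066). The call held in each fit that left out 1 library (adjusted p 0.001 to 0.026 in limma). Under the endothelial scaling Pdgfrb was not called, and the median of the 4 mural genes was -0.12.

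Notch3 (ENSMUSG00000038146, chr17:32120820-32166880), a Notch receptor largely restricted to mural cells, showed the same arrangement. The saline levels were 8.37, 8.16, 3.33 and 8.62 FPKM. LPS libraries ranged from 1.25 FPKM over a median of 2.37 FPKM to 5.15 FPKM. The low saline value was again replicate 3, and the high LPS value was replicate 6. The log2 fold change was -1.18 ± 0.29 (SE, limma adjusted p = 0.0060), the largest decrease among the 10. Like Pdgfrb, Notch3 was not called under the endothelial scaling. Notch3 shares its position with Gm17276, an antisense gene, and the strand setting of the counting is not given in the sources used here.

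Cspg4 and Rgs5, the remaining mural genes, did not pass. Cspg4 (ENSMUSG00000032911, chr9:56865033-56899870), which encodes the proteoglycan NG2 on pericytes, had 1.43, 1.10, 0.596 and 1.27 FPKM in saline and 0.328 to 1.40 FPKM (median 0.847 FPKM) in LPS libraries. The groups overlapped over most of their range, with a log2 fold change of -0.19 (95% interval -0.58 to 0.20; limma adjusted p = 0.391) that ran from -0.31 to -0.10 when 1 library at a time was left out. Rgs5 (ENSMUSG00000026678, chr1:169655501-169695813), which encodes a regulator that switches off G protein signaling in pericytes, had 5.15, 4.29, 1.84 and 4.41 FPKM in saline and 1.73 to 3.35 FPKM (median 2.69 FPKM) in LPS libraries. Its log2 fold change was -0.39 (95% interval -0.86 to 0.07; limma adjusted p = 0.133), and without saline replicate 3 it was called lower at -0.64 (limma adjusted p = 0.006), as it was with scaling on total reads, at -0.55 (limma adjusted p = 0.046), and it was -0.27 without saline replicate 1. Under the endothelial scaling Cspg4 and Rgs5 turned to 0.13 and 0.14.

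Acta2 (ENSMUSG00000035783, chr19:34241090-34255336), the actin of smooth muscle and of contractile fibroblasts, was the most variable of the 10 in saline libraries. Its levels there were 77.7, 15.1, 8.90 and 6.59 FPKM, and in LPS libraries they ran from 17.4 FPKM over a median of 32.9 FPKM to 43.4 FPKM. Saline replicate 1 exceeded every LPS library, while the other saline libraries lay below all of them. The log2 fold change was 0.81 (95% interval -0.39 to 2.02; limma adjusted p = 0.230). Without saline replicate 1 it was 1.53 (limma adjusted p = 0.002), called higher, and without saline replicate 4 it was 0.41 (limma adjusted p = 0.560). In saline replicate 1 the leukocyte and epithelial sums given above were also the highest of the group, and their part in the Acta2 level was not tested.

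Tagln (ENSMUSG00000032085, chr9:45929619-45936058), which encodes the actin-binding protein SM22 alpha of smooth muscle, did not pass the test either. Like Acta2 it was highest among saline libraries in replicate 1. It was read at 1.29, 0.523, 0.338 and 1.05 FPKM in saline and at 0.164 to 0.634 FPKM (median 0.575 FPKM) in LPS libraries. Only 6 to 41 reads per library lie behind these values, and Tagln overlaps Pcsk7 and the antisense gene Gm48529. The log2 fold change was -0.23 (95% interval -0.61 to 0.15; limma adjusted p = 0.278), and it turned to 0.01 under the endothelial scaling. Leaving out 1 library at a time gave -0.36 to -0.10.

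The sequence before the start of Acta2 is shown because SRF, the factor measured with its coactivators below, is known to act on smooth muscle genes through the CArG box. The box is CC, 6 bases of A or T, and GG, a pattern that reads the same on both strands, and here up to 1 G or C was allowed among the 6. The strict form was found in 1.63% of 32851 RefSeq promoters (250 bases before to 50 after the start), and the wider form, taken after 0 strict matches had been found in the genes described here, was found in 9.98%. Promoters of 6 of the 10 genes were searched (Rgs5, Pdgfra, Col1a2, Cspg4, Notch3 and Acta2). The wider form was present in 2 of the 6, with 2 matches in Acta2 and 1 in Col1a2 (CCAAACTTGG, first base 228 bases before the start). Among 12 promoters of other contractile genes 1, that of Myl9, held it (8.33%, against 9.98% of all promoters). The 250 bases upstream of Acta2 on GRCm38.p6, minus strand of chr19:34255374-34255623, follow with both matches in capitals.
Acta2: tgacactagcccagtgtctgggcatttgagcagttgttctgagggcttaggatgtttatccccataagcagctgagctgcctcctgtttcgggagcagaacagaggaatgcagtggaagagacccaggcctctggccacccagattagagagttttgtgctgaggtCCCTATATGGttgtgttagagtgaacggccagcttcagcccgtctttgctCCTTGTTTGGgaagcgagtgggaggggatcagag
A match is a description of the sequence, and binding of SRF was not measured here. The first match, CCCTATATGG, begins 84 bases before the start.

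SRF and its coactivators, which drive many contractile genes, changed in both directions. Of 3 genes tested, Srf (log2 fold change 0.66, limma adjusted p = 0.0014) and Mrtfa (listed as Mkl1; 0.57, limma adjusted p = 0.0023) rose, and Mrtfb (listed as Mkl2; -1.01, limma adjusted p = 0.0002) fell. Myocd, the coactivator particular to muscle, was at 0 to 0.106 FPKM and was not tested. Scaled on the endothelial markers, 2 of the 3 were called higher and 0 lower, and under quantile normalization 1 was called higher and 1 lower.

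Among 13 other contractile genes 11 were tested, 2 fell and 0 rose, with a median log2 fold change of -0.15. The decreases were those of Mylk, the kinase of the myosin light chain, at -1.17 (limma adjusted p = 0.0003), and of Mustn1, a small protein of the musculoskeletal system, at -1.33 (limma adjusted p = 0.0018). Mylk stood at 18.0 to 20.1 FPKM in saline and 5.61 to 12.3 FPKM in LPS libraries, with no overlap. Myl9, the regulatory light chain of smooth muscle myosin, differed by 0.94 on the log2 scale (limma adjusted p = 0.063), and Smtn, an actin-binding protein, by 0.19 (limma adjusted p = 0.450). Cnn1, the smooth muscle calponin, and Actg2, the enteric smooth muscle actin (chosen after its values were seen), peaked in the same saline library as Acta2, with 6.22 and 8.01 FPKM in replicate 1 against at most 0.975 and 1.07 FPKM in the other saline libraries. Under the endothelial scaling 4 of the 11 were called higher and 2 lower, with a median of 0.22. The median also turned, to 0.16, without saline replicate 1, and was -0.42 without saline replicate 4 and -0.32 without saline replicate 3. Without saline replicate 1, LPS replicate 1 or LPS replicate 3, and in limma-voom, 1 of the 11 was called higher.

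Ratios within a library are free of the library's scaling. Acta2 over Tagln was 60.1, 28.8, 26.3 and 6.29 in saline libraries and 35.0 to 141 in LPS libraries. Acta2 over Myh11, the smooth muscle myosin heavy chain, was 6.50, 2.91, 2.81 and 1.76 in saline libraries and 6.29 to 12.5 in LPS libraries. In both ratios only saline replicate 1 reached into the LPS range. Col1a1 over Col1a2 varied less, within 1.24 to 1.36 in saline and 1.35 to 1.67 in LPS libraries. Here only saline replicate 3 reached into the LPS range. These ratios are given as a description, without a test.

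**Figure D2:**
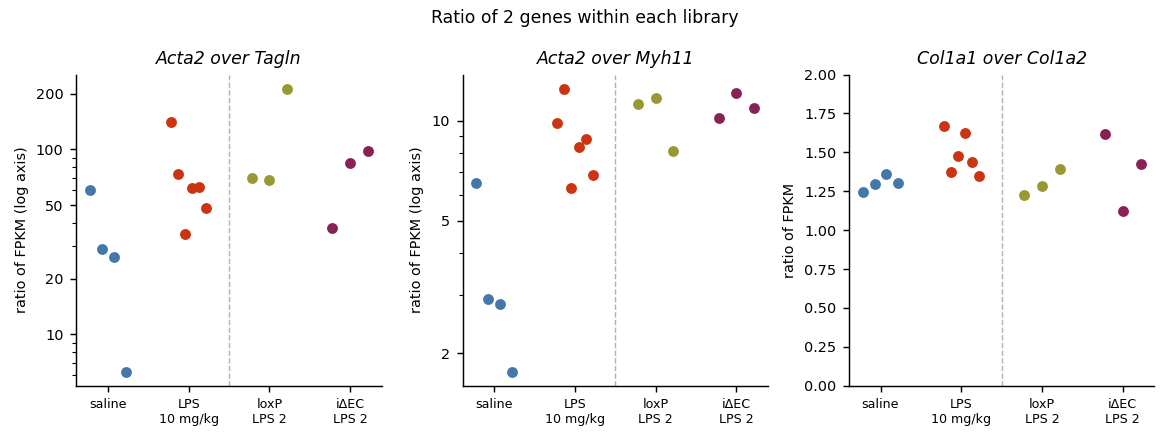
Ratio of the FPKM of 2 genes within each library (points), for the 4 groups, on log axes for the ratios of Acta2 to Tagln and to Myh11 and on a linear axis from 0 for Col1a1 to Col1a2; the dashed line separates the experiments. Acta2 over Myh11 was 1.76 to 6.50 in saline and 6.29 to 12.5 in LPS libraries, and Col1a1 over Col1a2 stayed between 1.12 and 1.67 in all 16 libraries.

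Col1a1 and Col1a2, whose products join into type I collagen, both fell. Col1a1 (ENSMUSG00000001506, chr11:94936224-94953042) had 13.4, 12.9, 8.36 and 11.5 FPKM in saline and 4.69 to 9.92 FPKM (median 7.02 FPKM) in LPS libraries. Its log2 fold change was -0.61 ± 0.20 (SE, limma adjusted p = 0.0262). Col1a2 (ENSMUSG00000029661, chr6:4504814-4541544) had 10.8, 10.0, 6.14 and 8.84 FPKM in saline and 2.81 to 7.35 FPKM (median 4.82 FPKM) in LPS libraries. Its log2 fold change was -0.75 ± 0.21 (SE, limma adjusted p = 0.0127). For both genes saline replicate 3 lay within the LPS range and the other saline libraries above it. Under the endothelial scaling neither was called, with Col1a1 turned to 0.04 and Col1a2 at -0.13. The call of Col1a1 was lost without saline replicate 1 (limma adjusted p = 0.064), 2 or 4, or LPS replicate 2 (up to 0.074), and with no filter on low values (0.062), while that of Col1a2 held without any single library. Col1a2 overlaps Gm43921.

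Pdgfra (ENSMUSG00000029231, chr5:75152292-75198215), the platelet-derived growth factor receptor of lung fibroblasts, had 13.8, 10.9, 4.83 and 10.2 FPKM in saline and 4.11 to 10.8 FPKM (median 6.06 FPKM) in LPS libraries. LPS replicate 6 reached the level of the saline libraries. The log2 fold change was -0.51 (95% interval -1.16 to 0.13; limma adjusted p = 0.161), and without saline replicate 3 it was called lower at -0.79 (limma adjusted p = 0.029). It was -0.34 without saline replicate 1 and turned to 0.12 under the endothelial scaling. Pdgfra overlaps Gm42802, Gm42803 and Mir7025.

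Dcn (ENSMUSG00000019929, chr10:97479609-97518143), which encodes decorin, a proteoglycan on collagen fibrils, had a higher mean in LPS libraries. Its saline levels were 0.868, 0.790, 0.623 and 0.888 FPKM, and its LPS levels 0.912 to 1.87 FPKM (median 1.10 FPKM). It was the only one of the 10 with groups that did not overlap, a property of 39.4% of all genes tested. The log2 fold change was 0.28 (95% interval -0.02 to 0.58; limma adjusted p = 0.102). It was called higher, at 0.62 (limma adjusted p = 0.013), under the endothelial scaling. Without saline replicate 3, a library left out after its values were seen, 6 of the 10 did not overlap (Pdgfrb, Rgs5, Notch3, Col1a1 and Col1a2 lower in LPS, Dcn higher), beside 44.4% of all genes tested.

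**Figure D3:**
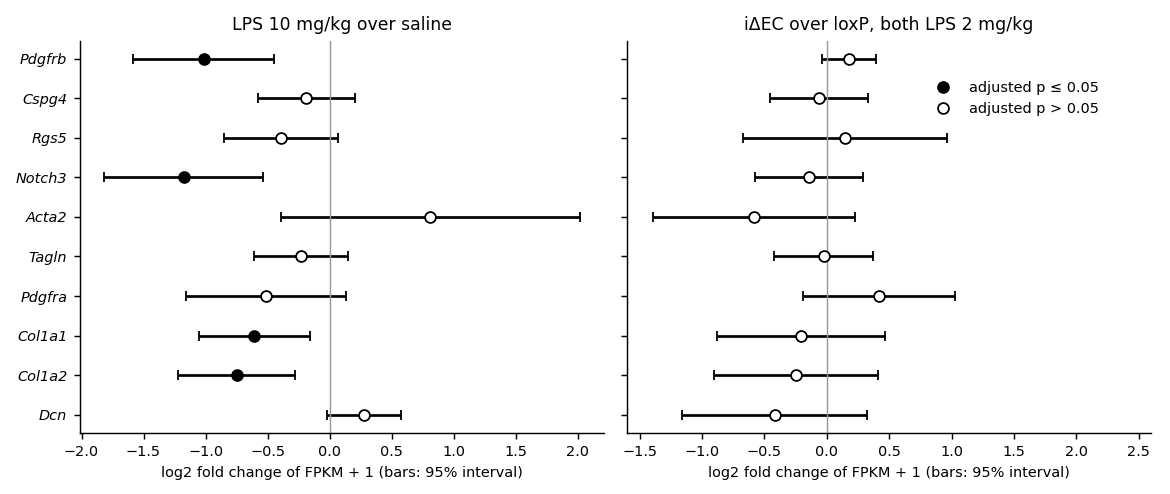
Log2 fold change of FPKM + 1 of the 10 genes with its 95% interval, for LPS over saline (left) and iΔEC/iΔEC over loxP/loxP (right), filled where the limma adjusted p was at most 0.05. Pdgfrb, Notch3, Col1a1 and Col1a2 are filled on the left, calls that were absent under the endothelial scaling, and 0 genes are filled on the right.

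Other genes of pericytes fell as well. Of 13 tested out of 14, 9 fell and 0 rose, with a median of -0.93. Itga8, an integrin subunit of mural cells and fibroblasts, fell from 9.23 ± 2.74 FPKM (SD) in 4 saline libraries to 1.60 ± 0.808 FPKM (SD) in 6 LPS libraries (log2 fold change -1.98, limma adjusted p = 5.91e-05) with no overlap between groups. Gucy1b1, a subunit of the nitric oxide receptor guanylate cyclase, fell by 1.47 on the log2 scale (limma adjusted p = 0.0019), and Cox4i2, a subunit of cytochrome c oxidase, by 1.15 (limma adjusted p = 0.0232). Mcam, which ECs also express and which made up most of the list's summed level, differed by 0.51 on the log2 scale (limma adjusted p = 0.122). With the endothelial scaling the counts were 5 lower and 1 higher of the 13 and the median was -0.45. Without saline replicate 1 there were 7 lower and 2 higher, and without saline replicate 2 or 4 there were 6 lower and 0 higher.

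Ligands of the receptors were read too. Pdgfb, the endothelial ligand of the Pdgfrb product, stood at 80.3 ± 34.1 FPKM in 4 saline and 93.4 ± 23.9 FPKM in 6 LPS libraries (SD; log2 fold change 0.31, limma adjusted p = 0.442). The lower saline mean rested on replicate 1, at 31.2 FPKM where the rest of the group had 86.0 to 110 FPKM, and without it the median log2 fold change of the 3 ligands tested moved from 0.31 to -0.08. Pdgfa, a ligand of the Pdgfra product, rose by 1.25 on the log2 scale (limma adjusted p = 0.0007), and Pdgfd, another ligand of the Pdgfrb product, fell by 0.79 (limma adjusted p = 0.0135). Both had groups that did not overlap. Pdgfc was below the filter. Scaled on the endothelial markers, the call of Pdgfd was absent, 2 of the 3 ligands tested (Pdgfa and Pdgfb) were called higher and the median was 1.03.

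Of 8 Notch ligands, receptors and targets tested, 4 fell and 0 rose, with a median of -0.55. They were Hey1, a Notch target, at -2.09 (limma adjusted p = 7.57e-05), Dll4, an endothelial Notch ligand, at -1.22 (limma adjusted p = 0.0184), Notch1 at -1.07 (limma adjusted p = 0.0041) and Hey2, another target, at -0.49 (limma adjusted p = 0.029). Hes1, a further target, was at -0.19 (limma adjusted p = 0.479). Calls relative to the endothelial markers were 1 lower and 2 higher of the 8. The count of 4 lower became 2 without saline replicate 2 and 6 without LPS replicate 6.

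Other lung fibroblast genes fell as well. Of 14 tested out of 18, 11 fell and 1 rose, with a median of -1.04. Inmt, a methyltransferase abundant in lung fibroblasts, fell from 311 ± 82.9 FPKM (SD) in 4 saline libraries to 53.9 ± 18.5 FPKM (SD) in 6 LPS libraries (log2 fold change -2.56, limma adjusted p = 6.95e-05). Mfap4, a microfibril protein, fell by 1.59 on the log2 scale (limma adjusted p = 0.0014). Pi16, a gene of adventitial fibroblasts, was the one that rose, by 1.72 (limma adjusted p = 0.0026). Gpx3, an extracellular glutathione peroxidase that other cells also make, had the highest mean of the list over the 10 libraries, though in saline libraries it was below Inmt (201 FPKM on average), and it differed by 0.33 on the log2 scale (limma adjusted p = 0.386). Relative to the endothelial markers 7 of the 14 fell and 2 rose, with a median of -0.55.

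The matrix around type I collagen fell with it for the most part. Of 12 further collagens and elastic fibre genes, 9 fell and 2 rose, with a median of -0.87. Eln, the core of elastic fibres, was at -1.31 (limma adjusted p = 0.0279), and Col6a1, a chain of type VI collagen, at -0.59 (limma adjusted p = 0.0437). The size of the Eln decrease rested in part on saline replicate 1, which held 209 FPKM. Saline replicates 2, 3 and 4 held 56.7, 50.2 and 48.4 FPKM. Eln in LPS libraries spanned 13.4 to 54.5 FPKM, and LPS replicate 4 lay above saline replicates 3 and 4. The 2 that rose were Fn1, fibronectin, with 15.8 ± 5.62 FPKM in 4 saline and 42.8 ± 17.0 FPKM in 6 LPS libraries (SD; log2 fold change 1.36, limma adjusted p = 0.0052), and Efemp2, an elastic fibre protein, at 0.82 (limma adjusted p = 0.0059). Of 5 proteoglycans of the decorin family that were tested, 4 fell and 0 rose. These were Ogn at -2.29 (limma adjusted p = 3.68e-05), Prelp at -1.52 (limma adjusted p = 0.0003), Bgn at -1.01 (limma adjusted p = 0.0068) and Podn at -0.52 (limma adjusted p = 0.0112). Lum, a close relative of Dcn, was at 0 to 0.291 FPKM and was not tested. Under the endothelial scaling 2 of the 12 matrix genes fell and 2 rose, and 2 of 4 proteoglycans fell and 1 rose. Leaving out saline replicate 1 or 2 or LPS replicate 1 or 2 left 6 of the 12 matrix genes lower and 2 higher. Without saline replicate 1, 4 proteoglycans were lower and 1 was higher.

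Of the enzymes that process collagen, 3 were higher and 3 lower of 15 tested, with a median of -0.11. P4hb, the beta subunit of prolyl hydroxylase and a general disulfide isomerase, was at 0.92 (limma adjusted p = 0.0010), P4ha1, its catalytic partner, at 0.77 (limma adjusted p = 0.0121) and Plod3, a lysyl hydroxylase, at 0.63 (limma adjusted p = 0.0030). Bmp1, which cleaves procollagen outside the cell, was at -0.93 (limma adjusted p = 0.0005), its enhancer Pcolce at -0.89 (limma adjusted p = 0.0009) and Loxl2, a crosslinking oxidase, at -0.76 (limma adjusted p = 0.0044). The collagen chaperone Serpinh1 differed by -0.20 on the log2 scale (limma adjusted p = 0.561). Relative to the endothelial markers 6 of the 15 were higher and 0 lower, and with scaling on total reads 3 were higher and 5 lower. The median was -0.29 without saline replicate 3, -0.01 without LPS replicate 1, and turned to 0.02, with 4 higher and 3 lower, without saline replicate 1.

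Of 6 genes of activated fibroblasts tested out of 9, Timp1 rose and Cthrc1 fell. Timp1, an inhibitor of metalloproteinases that many cells make in inflammation, rose from 1.33 ± 0.875 FPKM (SD) in 4 saline libraries to 52.9 ± 17.7 FPKM (SD) in 6 LPS libraries (log2 fold change 4.53, limma adjusted p = 1.1e-06). Cthrc1, a secreted protein of matrix-producing fibroblasts, was at -0.97 (limma adjusted p = 0.0009). Sfrp1 and Thy1 had log2 fold changes of -0.56 (limma adjusted p = 0.342) and -0.32 (limma adjusted p = 0.361). Sfrp1 was at 10.8 FPKM in saline replicate 1 and at 0.538 to 4.15 FPKM in the other saline libraries. Thy1 was lowest among saline libraries in replicate 3 (0.523 FPKM, against 1.39 to 3.51 FPKM). Both values rested on these libraries. Grem1 was at 0 in all but 1 library. With the endothelial scaling, and likewise without saline replicate 1 or LPS replicate 1, 2 of the 6 were higher and 1 lower.

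Markers of other cells moved in the same comparison. Of 10 endothelial markers 6 fell and 0 rose (median -0.71), with Cdh5 at -0.88 (limma adjusted p = 0.0057) and Cldn5 at -0.50 (limma adjusted p = 0.331). Of 11 leukocyte markers tested 10 rose and 1, Cd79a, fell (median 3.25), and their sum went from a median of 870 FPKM in saline to 6904 FPKM in LPS libraries, led by Lyz2 and followed by S100a9. Of 10 epithelial markers 1 (Sftpd) rose and 2 (Sftpc and Scgb1a1) fell (median -0.44), and their sum went from a median of 1629 to 610 FPKM, led by Sftpc. Sftpb was at -0.64 (limma adjusted p = 0.144). The epithelial median rested on saline replicate 1, without which it was -0.03 with 1 lower and 1 higher. Without saline replicates 1 and 3 it turned to 0.27 with 2 higher and 1 lower, and without saline replicate 4 it was -0.70 with 3 lower and 1 higher. The call of Cd79a was lost without saline replicate 1, 2 or 4 or LPS replicate 5. Of 6 mesothelial markers 2 were tested, with Upk1b at -1.78 (limma adjusted p = 0.0002) and Krt19 at -0.46 (limma adjusted p = 0.157), while the defining marker Wt1 was at 0 in all saline libraries. The part of these changes in the values of the 10 genes was not tested.

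**Figure D4:**
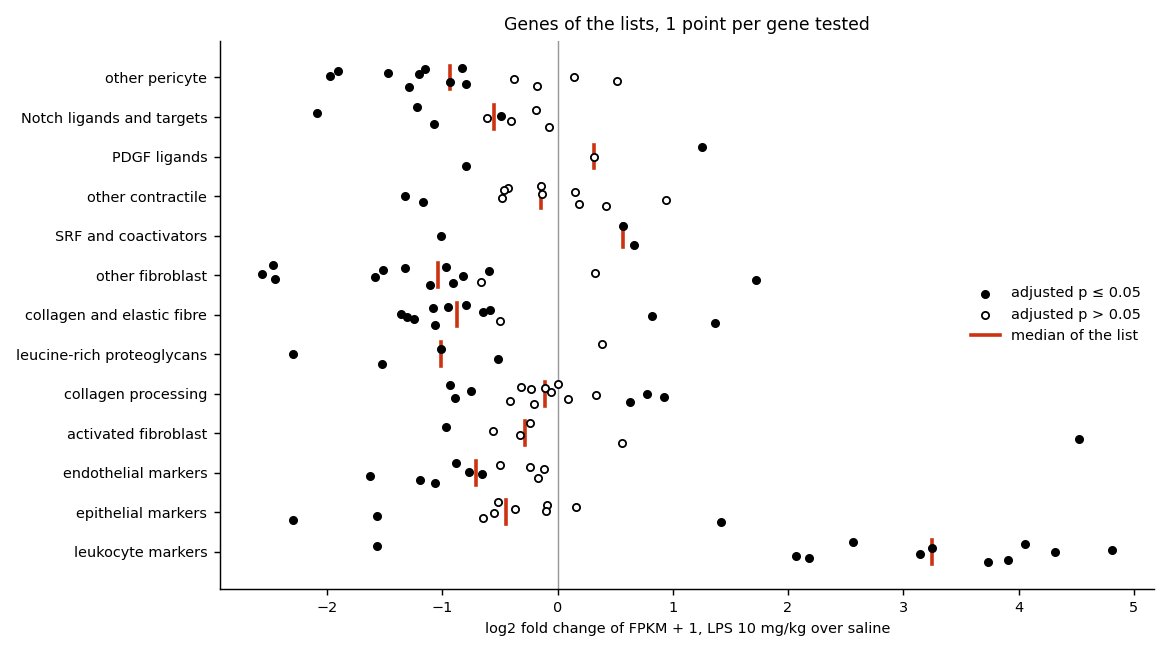
Log2 fold change of FPKM + 1 for LPS over saline (x axis), 1 point per gene tested and 1 line per list (y axis), filled where the limma adjusted p was at most 0.05, with the list's median in red. Other pericyte, other fibroblast and collagen and elastic fibre genes have medians of -0.93, -1.04 and -0.87 (-0.45, -0.55 and -0.26 under the endothelial scaling), other contractile genes of -0.15 (0.22), and leukocyte markers of 3.25.

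The comparison of Fgfr1 iΔEC/iΔEC with Fgfr1 loxP/loxP mice asked what loss of endothelial FGFR1 changes under LPS. Fgfr1 itself was read at 2.90, 2.91 and 2.59 FPKM in loxP/loxP and at 0.683, 1.41 and 1.15 FPKM in iΔEC/iΔEC libraries, with no overlap and in the direction of the labels. Of the 10 genes, 0 were called in either direction, as were 0 of all 14944 genes tested (0% called), Fgfr1 included (log2 fold change -0.88, limma adjusted p = 0.960). At an unadjusted limma p under 0.05 there were 663 genes, with 0 of the 10 among them, and limma-voom on the read numbers also called 0 genes. The median log2 fold change of the 10 was -0.10 (-0.19 to -0.05 when 1 library at a time was left out), and that of all genes tested was 0.01.

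Pdgfrb was the steadiest of the mural genes. It was read at 4.25, 4.69 and 4.57 FPKM in loxP/loxP and at 5.05, 5.29 and 5.35 FPKM in iΔEC/iΔEC libraries. It was the only one of the 10 whose groups did not overlap, as those of 10.2% of all genes tested did not, and the log2 fold change was 0.18 (95% interval -0.04 to 0.40; limma adjusted p = 0.960). Under the endothelial scaling it was at -0.03. Notch3 was read at 1.93, 2.56 and 3.37 FPKM against 2.11, 1.93 and 2.74 FPKM, Cspg4 at 0.523, 0.750 and 1.03 FPKM against 0.662, 0.543 and 0.866 FPKM, and Rgs5 at 3.76, 3.12 and 1.51 FPKM against 5.20, 2.64 and 1.97 FPKM. Their intervals of the log2 fold change were -0.57 to 0.29 for Notch3, -0.45 to 0.33 for Cspg4 and -0.67 to 0.97 for Rgs5. The values of Notch3 (-1.18) and Pdgfrb (-1.02) in LPS over saline lay outside the intervals of these genes in this comparison. Those of Cspg4 (-0.19) and Rgs5 (-0.39) lay inside. The sizes are not alike, since the scale understates changes of low genes. Notch3 averaged 7.12 FPKM in saline and 2.62 FPKM in loxP/loxP libraries.

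On the scale of the test Acta2 had the largest fold change of the 10 in size, whereas by the log2 ratio of mean FPKM Pdgfra (0.66) exceeded it in size (-0.58). It was read at 53.7, 73.2 and 106 FPKM in loxP/loxP and at 32.2, 65.4 and 57.9 FPKM in iΔEC/iΔEC libraries, a log2 fold change of -0.58 (95% interval -1.39 to 0.23; limma adjusted p = 0.960). The groups overlapped, but within each of the 3 pairs of equal replicate number the iΔEC/iΔEC library was the lower one. The sources do not state that equal numbers are pairs. With the pairs as a block the limma adjusted p was 0.592, and leaving out 1 library at a time moved the log2 fold change from -0.82 to -0.28. Tagln was read at 0.769, 1.07 and 0.499 FPKM against 0.856, 0.771 and 0.587 FPKM, a log2 fold change of -0.02 (95% interval -0.42 to 0.37; limma adjusted p = 0.993). Of 11 other contractile genes 0 were called, and 3 (Mustn1, Lmod1 and Tpm2, the latter pair chosen after their values were seen) had an unadjusted limma p under 0.05, at -0.53, -0.59 and -0.72. The list's median was -0.53, and it was -0.25 without loxP/loxP replicate 3, -0.36 without iΔEC/iΔEC replicate 1 and -0.28 with no filter. The summed level of the list went from 146 to 142, from 171 to 141 and from 190 to 143 FPKM in the 3 pairs. Srf was at 0.38 with an adjusted p of 0.960 in limma. It was read at 18.6, 18.9 and 18.7 FPKM in loxP/loxP and at 22.4, 28.2 and 24.0 FPKM in iΔEC/iΔEC libraries. These groups did not overlap, as those of 10.2% of all genes tested did not. Of 3 tested genes of SRF and its coactivators, 1 had an unadjusted limma p under 0.05.

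The fibroblast genes overlapped between the genotypes. Dcn was read at 5.13, 5.06 and 4.38 FPKM in loxP/loxP and at 1.61, 4.30 and 5.04 FPKM in iΔEC/iΔEC libraries (log2 fold change -0.42, 95% interval -1.16 to 0.32; limma adjusted p = 0.960). Replicate 1 of the iΔEC/iΔEC group was also the lowest of that group for Col1a1, at 2.86 FPKM against 3.61 and 6.40 FPKM, for Col1a2, at 1.77 FPKM against 3.21 and 4.49 FPKM, and for Pdgfra, at 1.63 FPKM against 3.88 and 2.56 FPKM. In loxP/loxP libraries Col1a1 stood at 4.94, 3.60 and 6.41 FPKM, Col1a2 at 4.02, 2.80 and 4.60 FPKM and Pdgfra at 2.28, 1.29 and 1.54 FPKM. The log2 fold changes were -0.21 (95% interval -0.88 to 0.47) for Col1a1, -0.25 (-0.90 to 0.41) for Col1a2 and 0.42 (-0.19 to 1.03) for Pdgfra. Without iΔEC/iΔEC replicate 1 those of Dcn, Col1a1 and Col1a2 were -0.05, -0.01 and 0.02 and that of Pdgfra was 0.64, and leaving out each library in turn moved Dcn from -0.65 to -0.05, Col1a1 from -0.48 to -0.01 and Pdgfra from 0.19 to 0.64.

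In every list of related genes 0 were called in this comparison. The median log2 fold change was -0.04 for other pericyte genes, -0.17 for other fibroblast genes, -0.08 for collagens and elastic fibre genes and -0.15 for proteoglycans. It was 0.09 for collagen processing, 0.02 for Notch ligands, receptors and targets, 0.27 for PDGF ligands and -0.15 for activated fibroblast genes. Without iΔEC/iΔEC replicate 1 the medians of collagens and elastic fibre genes and of proteoglycans turned to 0.02 and 0.01. Those of other fibroblast and activated fibroblast genes then moved to -0.02 and -0.04. Without loxP/loxP replicate 3 that of other pericyte genes turned to 0.12 and that of other fibroblast genes was -0.07. Some medians also moved away from 0. Without iΔEC/iΔEC replicate 2 other fibroblast genes were at -0.28 and collagens and elastic fibre genes at -0.14. Without iΔEC/iΔEC replicate 3 proteoglycans were at -0.28, other pericyte genes at -0.14 and activated fibroblast genes at -0.23. Leaving out 1 library at a time gave medians of -0.07 to 0.18 for the Notch genes, 0.24 to 0.47 for PDGF ligands and 0.03 to 0.15 for collagen processing. Epithelial markers had a median of -0.79 (-0.48 without iΔEC/iΔEC replicate 1). Endothelial markers had one of 0.29 (0.19 without iΔEC/iΔEC replicate 1 and 0.47 without iΔEC/iΔEC replicate 2). The epithelial sum was lower in the iΔEC/iΔEC library of each of the 3 inferred pairs (852 against 391, 1558 against 1039 and 2717 against 788 FPKM). The endothelial sum was higher in each (2890 against 3645, 2304 against 2615 and 2395 against 3340 FPKM). Leukocyte markers had a median of -0.26, with 11 of 12 below 0. It was 0.01 without iΔEC/iΔEC replicate 1, -0.54 without iΔEC/iΔEC replicate 2 and -0.42 without loxP/loxP replicate 1. The part of these markers in the values of the 10 genes was not tested.

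Side by side, and with no test since the experiments differ in dose, mice and table, some genes stood at other levels in the second experiment. Dcn was at 4.38 to 5.13 FPKM in loxP/loxP libraries and under 1 FPKM in saline libraries. Pdgfra was at 1.29 to 2.28 FPKM in loxP/loxP libraries, below all 10 libraries of the first experiment. Pdgfrb, at 4.25 to 4.69 FPKM, lay near the bottom of the LPS range. Dose, genotype and mice cannot be told apart here.

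The 10 genes were also compared by how their levels varied between libraries of a group. After the mean of each group had been removed from log2(FPKM + 1), the Pearson correlation over the 16 libraries was 0.96 between Col1a1 and Col1a2, 0.94 between Pdgfrb and Notch3 and 0.90 between Cspg4 and Notch3. Pdgfrb, Cspg4 and Notch3 reached 0.59 to 0.74 with the 2 collagens, whereas Rgs5 was at 0.04 with Col1a1 and 0.08 with Col1a2. Acta2 and Tagln reached 0.37, and Tagln was closer to Rgs5 (0.76). Dcn had its highest value with Col1a2 (0.52) and was at 0.05 with Pdgfrb. The libraries share depth and isolation, and these values are a description.

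**Figure D5:**
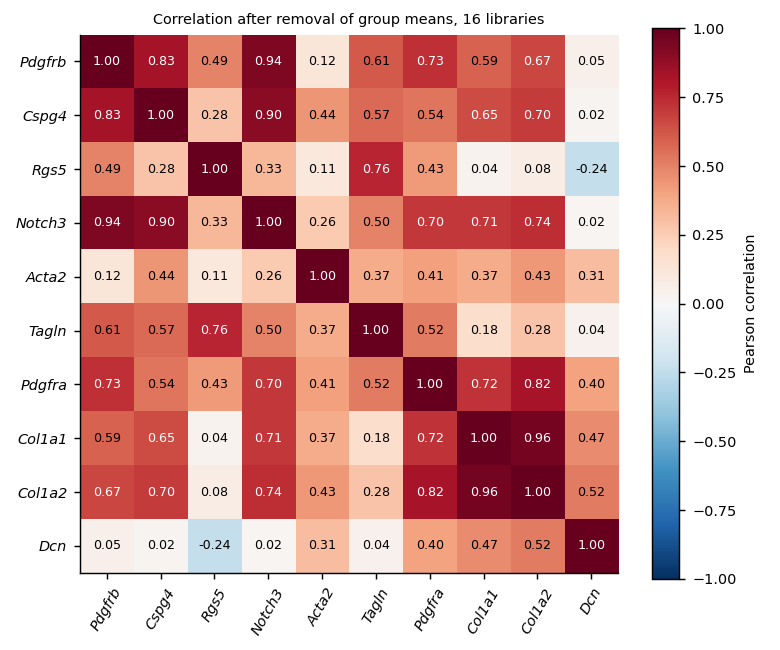
Pearson correlation (colour and printed value) of log2(FPKM + 1) between each pair of the 10 genes over 16 libraries after removal of the 4 group means. Col1a1 with Col1a2 (0.96), Pdgfrb with Notch3 (0.94) and Notch3 with Cspg4 (0.90) are highest, and Acta2 with Tagln is at 0.37.

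Among the 14182 genes that averaged 0.5 FPKM or more in both tables, those most like the mean of the 4 mural genes by the same measure were Heyl (0.95), Ltbp2 (0.94), Rasl12 (0.91), Gucy1a1 (0.91) and Tmem178 (0.90). Those most like the mean of Acta2 and Tagln were Nov (0.95), Depp1 (0.95), Arid5a (0.94), Cnn1 (0.94) and Edn1 (0.93). That mean was 3.75 in saline replicate 1 and 1.86 to 2.31 in the other saline libraries. The part of this 1 library in the order was not tested. Those most like the mean of the 4 fibroblast genes were C4b (0.91), C7 (0.90), Dpep1 (0.89), Dpt (0.89) and Col23a1 (0.88).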

How the data were processed

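The authors aligned reads to GRCm38/mm10 with HISAT2 2.0.5, counted them with featureCounts 1.5.0-p3, tested the counts with DESeq2 and deposited FPKM with gene lengths. Strandedness and annotation release are not given in the sources used here. FPKM times length gave whole read numbers (within 0.1 read) for 100% of values, and the scaling within the FPKM gave the same calls as median-of-ratios factors. Symbols of 11 genes in the second experiment had become dates, and those of the first were used. log2(FPKM + 1) was compared with limma 3.58.1 in R 4.3.3 (lmFit, eBayes with trend) within each experiment, leaving out genes that averaged under 0.5 FPKM, with Benjamini-Hochberg adjustment and calls at 0.05. The fit was tested on simulated data. Other steps ran in Python 3.11.15 with pandas 2.3.3, numpy 2.4.6 and matplotlib 3.10.9. The read numbers limit precision at low levels and cover counting error only. The chi-square between replicates, averaged over genes, was at least 5.06, so no library was a copy of another of its group.

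The 10 genes, the 10 related lists and the 4 marker lists were chosen with earlier results of these data known. Named from each related list were the 3 tested genes with the highest mean FPKM in the first experiment and the one with the largest fold change, from each marker list the 2 most abundant, and for likeness the top 5 per group of genes. Where a list's count was 5 or fewer the genes were named after their values were seen. Other scalings, pseudocounts, filters, limma-voom, a replicate block and leaving out libraries were tried. In the second experiment libraries with the same number deviated together (correlations 0.248, 0.177 and 0.187). The numbers were therefore taken to pair the littermate groups. This pairing was inferred from these small correlations alone and is not stated in the sources. Library columns with no sample numbered 0.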

Additional observations from a re-analysis of the deposited data

Results flagged for a closer look

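Of 28 values per group examined in the first experiment (the 10 genes and the sums of the 4 marker lists in both groups), 5 had a library far from the others of its group by Dixon's criterion, which chance gives in about 1 of 20 groups, or 1.4 of 28. Acta2 was at 77.7 FPKM in saline replicate 1 and at 6.59 to 15.1 FPKM in the other saline libraries. Notch3 was at 3.33 FPKM in saline replicate 3 and at 8.16 to 8.62 FPKM in the others. Notch3 was at 5.15 FPKM in LPS replicate 6 and at 1.25 to 2.69 FPKM in the other LPS libraries. Tagln was at 0.164 FPKM in LPS replicate 1 and at 0.497 to 0.634 FPKM in the others, and Dcn was at 1.87 FPKM in LPS replicate 4 and at 0.912 to 1.27 FPKM in the others.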

How the results depend on the processing

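In LPS over saline, the scaling on the endothelial markers gave 2 genes higher and 0 lower and a median of 0.081, and turned the log2 fold changes of Cspg4 (0.13), Rgs5 (0.14), Tagln (0.011), Pdgfra (0.12) and Col1a1 (0.042). A limit of 1 on the log2 fold change left 2 lower. Leaving out 1 library at a time gave 0 to 1 higher, 3 to 6 lower and medians from -0.69 to -0.30, and without saline replicates 1 and 3 there were 1 higher and 5 lower. The numbers do not pair the samples of this experiment (correlations 0.0972, -0.162, -0.209 and -0.117), and with the replicate block 3 were lower, Col1a1 being at an adjusted p of 0.052 in limma. In iΔEC/iΔEC over loxP/loxP, 0 genes were called in every alternative, the replicate block changed no call, and the median was -0.25 under the endothelial scaling, at which Pdgfrb (-0.031) and Rgs5 (-0.037) turned. Quantile normalization turned Cspg4 (0.011) and Tagln (0.038). Leaving out 1 library at a time gave ranges on both sides of 0 for Cspg4 (-0.16 to 0.046), Rgs5 (-0.16 to 0.37), Notch3 (-0.28 to 0.0054), Tagln (-0.14 to 0.091) and Col1a2 (-0.47 to 0.019). The cause of these changes was not tested. Of the alternative values per gene, 176 of LPS over saline and 136 of the other comparison kept direction and side of the threshold. In LPS over saline 5 others turned direction, 8 gained a call and 9 lost one. In the other comparison 12 turned direction, and the threshold played no part since 0 genes were called.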
